A study of Mus musculus with 6 samples.

Results

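RNA sequencing values of 8 genes of antibody-secreting cells, Igj, Xbp1, Prdm1, Irf4, Sdc1, Tnfrsf17, Derl3 and Slpi, were examined in follicular B cells with and without myosin IIa. The genes were found by symbol in a table of 20458 gene names, where J chain is written Igj and is called Jchain in newer annotations, and all 8 matched. They had been selected with the values of the same comparison known, so the ratios below describe them and support no test. The cells came from CD23Cre+Myh9wt/fl mice (wt/fl, called control cells here, 3 samples) and CD23Cre+Myh9fl/fl mice (fl/fl, called deficient cells here, 3 samples), all on the C57BL/6 strain and all carrying Cre, and had been sorted as B220+AA4.1-CD23+CD21lo. Cre is driven by the promoter of CD23, a receptor of mature B cells, and removes an exon of Myh9, which encodes the myosin IIa heavy chain, from 1 allele in wt/fl cells and from both alleles in fl/fl cells. The control group is therefore haploinsufficient and not wild-type, and the age of the sorted mice was not given in the sample labels.

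The values are FPKM, which correct fragment numbers for the length of the transcript and the size of the library, and they can be compared between genes. Each gene has only 1 FPKM per genotype, pooled by the authors over 3 samples, so no spread between samples can be stated for any value here, and no difference was tested. Read depth per sample is unknown. Ratios are log2 of fl/fl over wt/fl after 0.1 was added to the FPKM summed over all entries of a gene, which understates the ratios of low genes. A gene was compared with all others when its mean over both genotypes was at least 1 FPKM, a filter passed by 9879 gene names with a median log2 ratio of 0.0027. Myh9 itself was at 50.6 FPKM in control and 21.1 FPKM in deficient cells, a log2 ratio of −1.26, and fragments from the exons that Cre leaves in place still count toward it. The sorted cells carried the genes of follicular B cells at high levels in both genotypes, among them Ms4a1, which encodes CD20 (373 FPKM in control and 379 in deficient cells), and Fcer2a, which encodes CD23 (439 and 588).

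B cells become antibody-secreting cells by replacing one transcriptional program with another. IRF4 and the repressor PRDM1 (also called Blimp-1) shut down the B cell program, and XBP1 enlarges the endoplasmic reticulum (ER) so that large amounts of antibody can be folded and exported. The J chain joins IgM and IgA into polymers and is made in large amounts by plasma cells, whereas IRF4 and XBP1 are also present in resting B cells. Plasma cells usually carry little B220 and CD23, the markers by which these cells were sorted.

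The 8 genes lie on 7 chromosomes. Promoters are shown for Igj and Sdc1, the 2 genes with the lowest ratios, and for Derl3, the gene with the highest, so that the sequence before the start of each can be read beside its values. Each sequence is the 250 bases before the transcription start from RefSeq on GRCm38.p6, written 5′ to 3′ on the strand of the gene, and all 8 genes matched the promoter table. Igj lies on the minus strand at chr5:88527898-88528147, Sdc1 on the plus strand at chr12:8771146-8771395, and Derl3 on the plus strand at chr10:75893148-75893397. Capitals mark CCACG or its reverse complement, which occurs in binding sites of ER stress factors.
Igj: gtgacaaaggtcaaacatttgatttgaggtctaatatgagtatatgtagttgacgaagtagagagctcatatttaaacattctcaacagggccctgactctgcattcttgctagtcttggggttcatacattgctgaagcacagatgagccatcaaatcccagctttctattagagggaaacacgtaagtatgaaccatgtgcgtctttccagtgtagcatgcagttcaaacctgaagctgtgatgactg
Sdc1: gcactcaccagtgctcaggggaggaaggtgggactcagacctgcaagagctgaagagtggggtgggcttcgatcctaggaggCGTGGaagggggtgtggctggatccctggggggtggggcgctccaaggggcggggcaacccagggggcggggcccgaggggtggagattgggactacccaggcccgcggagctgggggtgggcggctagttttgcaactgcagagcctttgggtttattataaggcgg
Derl3: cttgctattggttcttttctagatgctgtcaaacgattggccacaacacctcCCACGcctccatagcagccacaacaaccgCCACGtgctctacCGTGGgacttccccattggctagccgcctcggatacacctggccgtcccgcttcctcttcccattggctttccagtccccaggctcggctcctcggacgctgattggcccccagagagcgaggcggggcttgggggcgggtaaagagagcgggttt
CCACG was searched on both strands and was chosen after the sequences had been seen. It occurred in 5 of the 8 promoters, with 3 matches in Derl3, 2 in Prdm1 and 1 each in Irf4, Sdc1 and Slpi, and it is held by 28.3% of the 32851 promoters of the same length. A core of PRDM1 sites, GNGAAAG, was found in 1 of the 8, that of Irf4, and in 19.4% of all promoters. A core of XBP1 sites, GACGTG, was found in 0 of the 8 and in 5.20% of all promoters. The windows differed in base composition, with a GC content of 42% for Igj and Slpi, 60.8% for Derl3 and 66% for Sdc1, beside a median of 52.4% over all promoters. These matches describe the letters of the windows only.

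Igj, the gene of the J chain, was the member that differed most between the genotypes. Its level was 5.40 FPKM in control and 0.617 FPKM in deficient cells, so the deficient level was 11.4% of the control level, or 8.74-fold lower. The log2 ratio was −2.94, and −1.98 when 1 was added to each FPKM in place of 0.1. Of 1388 gene names with a mean of 2 to 5 FPKM, which rest on a similar signal, Igj had the lowest ratio, and among all 9879 it ranked 10th from the bottom. In that range 5% of gene names had a log2 ratio of −0.65 or less, but how far single samples varied cannot be seen. Igj is a single entry of the table on chromosome 5 from 88948834 to 88956922, positions as the table gives them, which are not those of GRCm38. In bulk RNA, fewer cells that make J chain and less J chain RNA per cell cannot be told apart.

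The transcription factors differed less than Igj. Irf4 was the highest of the 8 genes, at 60.8 FPKM in control and 58.9 in deficient cells, a log2 ratio of −0.045. Xbp1 followed at 48.8 and 45.9 FPKM, a log2 ratio of −0.089. Both ratios were within the range of −0.25 to 0.25 that held the central 90% of the 3773 gene names with a mean of 20 FPKM or more. Xbp1 has 2 entries, which are groups of transcripts with the same coding sequence, and RefSeq lists 2 curated transcripts of this gene. The splicing of Xbp1 mRNA by IRE1 changes its coding sequence and yields the active factor, but the table does not say which entry is the spliced form. The larger entry was at 38.1 FPKM in control and 37.0 in deficient cells, and the smaller at 10.7 and 8.91 FPKM. The smaller entry held 22.01% of the Xbp1 signal in control and 19.4% in deficient cells, so the make-up of Xbp1 was similar in both genotypes. Prdm1 was low, at 1.07 FPKM in control and 0.899 in deficient cells, with a log2 ratio of −0.23. Its mean of 0.985 FPKM was just under the filter, so it was not compared with other genes, and the software of the authors did not test its entry.

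**Figure D1:**
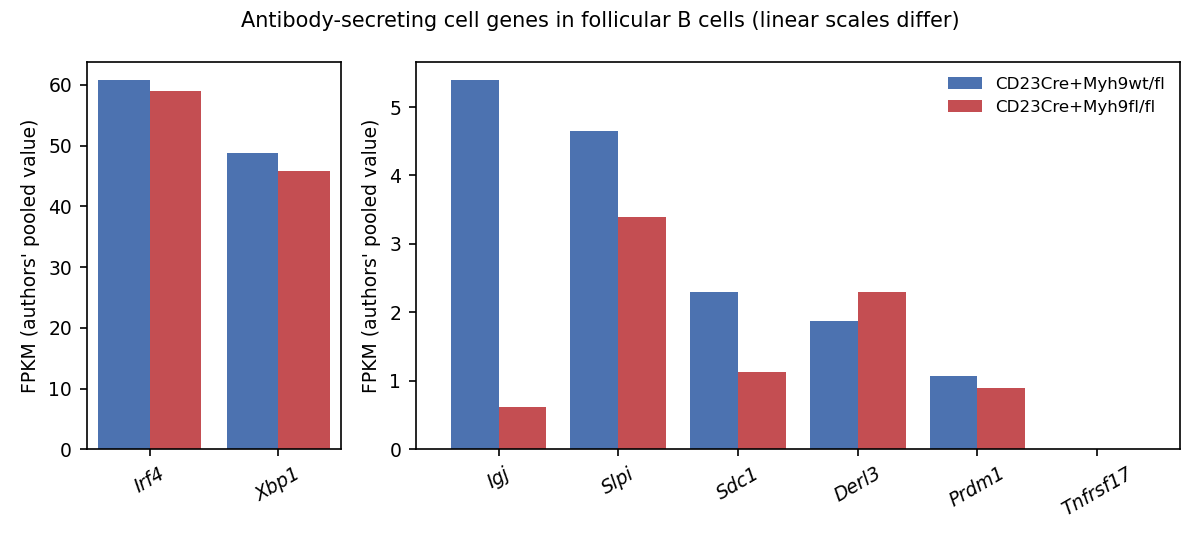
Pooled FPKM of the 8 genes (y axis, linear and starting at 0, with a separate scale for Irf4 and Xbp1) in CD23Cre+Myh9wt/fl (blue) and CD23Cre+Myh9fl/fl (red) follicular B cells. Each bar is 1 pooled value over 3 samples, so there are no error bars; Igj is at 5.40 and 0.617 FPKM, whereas the 2 bars of Irf4 and of Xbp1 are of similar height and Tnfrsf17 is listed at 0.

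Among the members, the RNAs of plasma cell surface proteins, Sdc1 and Tnfrsf17, were low in both genotypes. Sdc1, which encodes syndecan-1 (CD138), the usual surface marker of plasma cells, was at 2.30 FPKM in control and 1.13 in deficient cells, 49.0% of the control level. Its log2 ratio was −0.97 with 0.1 added and −1.03 with nothing added, on either side of a 2-fold difference. Of the 750 gene names with a mean of 1 to 2 FPKM, 31 were as low or lower, or 4.13%. Tnfrsf17, which encodes BCMA, a receptor that long-lived plasma cells need for survival, was listed at 0 FPKM in both genotypes. No ratio can be given for it. A value of 0 in such a table can also be a failed estimate, but the software of the authors marked this entry as not tested and not as failed.

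The secretory members went in different directions. Derl3, which encodes an ER protein that helps to remove misfolded proteins and depends on XBP1, was the only member with a higher value in deficient cells, at 1.87 FPKM in control and 2.30 in deficient cells, a log2 ratio of 0.28. In its range of 2 to 5 FPKM the central 90% of gene names reached from −0.65 to 0.56, so Derl3 was well inside it. Slpi, which encodes a secreted protease inhibitor also made by myeloid cells, was at 4.65 and 3.39 FPKM, a log2 ratio of −0.45 and 72.9% of the control level. In the same range 9.87% of gene names were as low or lower than Slpi.

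Ordered by level, the genes in control cells were Irf4, Xbp1, Igj, Slpi, Sdc1, Derl3, Prdm1 and Tnfrsf17. In deficient cells Igj was at place 7 instead of 3, behind Slpi, Derl3, Sdc1 and Prdm1, which are within a few FPKM of each other, and without replicate values it cannot be said which neighbours in these orders differ beyond their spread. Igj amounted to 11.05% of the Xbp1 level in control and 1.34% in deficient cells. The 6 genes other than Irf4 and Xbp1 summed to 15.3 FPKM in control and 8.33 in deficient cells, and Igj made up 68.7% of that difference. By count, 1 of the 8 members, Igj, was at least 2-fold lower in deficient cells, where 0.779% of the 9879 gene names were, and 0 were at least 2-fold higher, where 0.344% were. In the levels where Igj and Sdc1 lie, 1.51% of gene names with a mean of 2 to 5 FPKM and 3.73% of those with a mean of 1 to 2 FPKM were at least 2-fold lower. Of the 6 members that passed the filter, 5 had a lower value in deficient cells by any amount, as 49.5% of all compared gene names did, and their median log2 ratio was −0.27. With nothing added to FPKM, 2 of the 8, Igj and Sdc1, were at least 2-fold lower, where 0.830% of gene names were, and at a fold of 1.5 the same 2 were lower, where 2.59% were, and 0 were higher, where 1.60% were. Since the members were selected on this comparison, nothing is read from these counts.

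**Figure D2:**
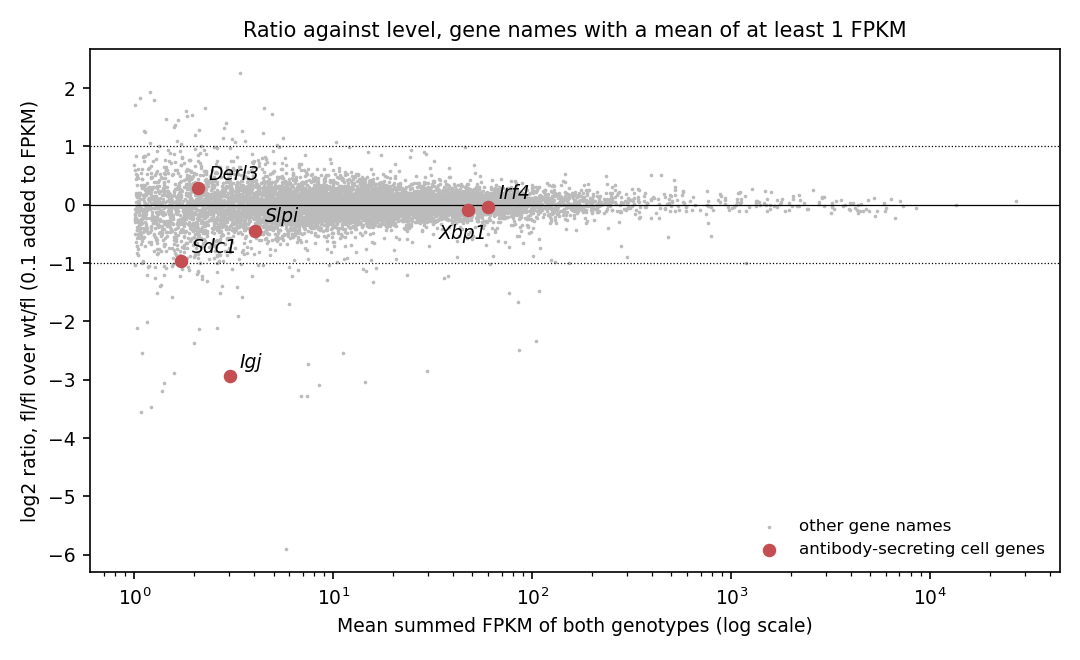
Log2 ratio of fl/fl over wt/fl (y axis, 0.1 added to each FPKM) against the mean summed FPKM of both genotypes (x axis, log scale) for 9879 gene names, with the 6 compared members in red and dotted lines at 2-fold differences. Igj lies at −2.94, the lowest of the gene names with a mean of 2 to 5 FPKM, with genes about as low on either side of that range. Sdc1 lies next to the lower dotted line, and Slpi, Derl3, Xbp1 and Irf4 lie among the other genes.

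Other genes of the plasma cell program that passed the filter had ratios closer to 0 than that of Igj. Of 18 further plasma cell genes, 14 were compared, 0 were at least 2-fold lower or higher, 7 were lower and 7 higher by any amount, and the median log2 ratio was −0.059. The most abundant were Pou2af1, a coactivator of immunoglobulin genes (604 FPKM in control and 633 in deficient cells), and Mzb1, an ER cochaperone that helps to assemble IgM (189 and 140). Txndc5, a disulfide isomerase of the ER, was at 45.1 and 51.0 FPKM, and Tnfrsf13b, which encodes the BAFF and APRIL receptor TACI, at 22.2 and 28.7. The 14 compared genes spanned log2 ratios from −0.84 to 0.37. Below the filter, Prg2, which encodes a granule protein also made by eosinophils, was at 0.690 FPKM in control cells and listed at 0 in deficient cells, so no ratio is given for it. Cav1 was at 0.0116 FPKM in control cells and listed at 0 in deficient cells, Ccr10 was listed at 0 in both, and Cd28 was at 0.275 and 0.355 FPKM.

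The secretory machinery was, as a list, at nearly the same level in both genotypes. All 36 listed genes of ER import, folding and ER stress were compared. Of these, 0 were at least 2-fold lower or higher, where 0.779% and 0.344% of all compared gene names were. The median log2 ratio was −0.027, with a range of −0.31 to 0.51. Hsp90b1 (423 FPKM in control and 363 in deficient cells) and Hspa5, which encodes the chaperone BiP (285 and 264), led the list. Sec61b, a subunit of the channel through which proteins enter the ER, was at 206 and 166 FPKM, and Atf4, a transcription factor of the stress response, at 144 and 144. Summed over the list, the deficient level was 95.6% of the control level.

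The B cell program that plasma cells shut down differed little as a list, but some of its genes lay outside the range of their level. Of 20 listed genes 19 were compared, 0 were at least 2-fold lower or higher, 7 were lower and 12 higher by any amount, and the median log2 ratio was 0.042. Pax5, the factor that maintains B cell identity and is repressed by PRDM1, was at 357 FPKM in control and 373 in deficient cells. Bach2 and Bcl6, repressors that hold back plasma cell differentiation, were at 53.3 and 51.8 FPKM and at 48.4 and 60.0 FPKM. Of 13 receptors and signals that can drive B cells toward antibody secretion, all were compared, 0 were at least 2-fold lower or higher, and the median log2 ratio was −0.043. The most abundant of these were Tnfrsf13c, the BAFF receptor (613 FPKM in control and 570 in deficient cells), Cd180 (365 and 521), the adaptor Blnk (176 and 170) and Cd40 (69.8 and 85.9). Of 9 listed immunoglobulin constant genes, 0 matched a symbol of the table, so antibody heavy and light chains were not analysed here.

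**Figure D3:**
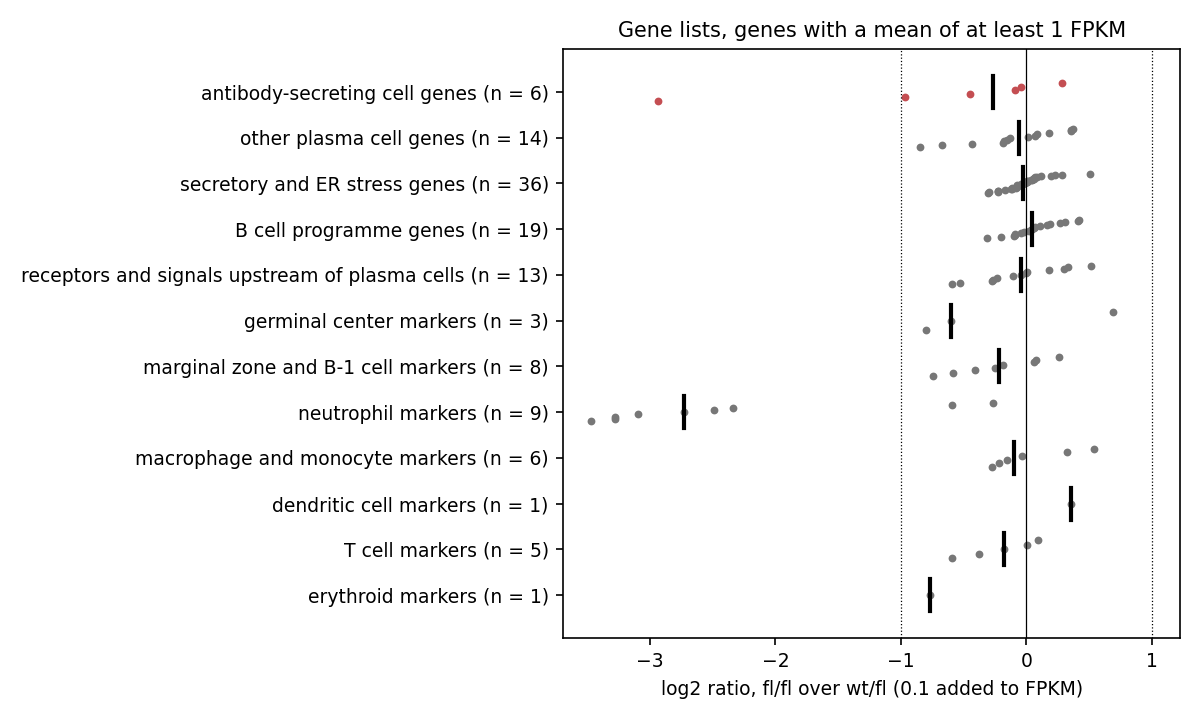
Log2 ratios of fl/fl over wt/fl (x axis, 0.1 added to each FPKM) for the compared genes of each list (rows), with 1 point per gene, black bars at the medians and dotted lines at 2-fold differences. Igj stands apart from the other red points, the plasma cell, secretory and B cell program lists lie around 0, and the neutrophil markers have a median of −2.73.

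Neutrophil and erythroid markers were lower in deficient cells, as Igj was. Of 15 matched neutrophil markers 9 were compared, and the median log2 ratio was −2.73. All 9 were lower in deficient cells, as 49.5% of all compared gene names were. At least 2-fold lower were 7 of them, where 0.779% of all compared gene names were. Summed over the list they amounted to 388 FPKM in control and 73.4 in deficient cells, led by S100a9 (175 and 34.5), S100a8 (145 and 25.8), Camp (15.3 and 1.70) and Retnlg (13.0 and 1.88). Ngp (13.4 and 1.29), Lcn2 (12.6 and 1.21) and Ltf (2.31 and 0.118) were the other 3 that were at least 2-fold lower, and Cebpe, Elane and Mpo were listed at 0 in deficient cells. The 5 matched erythroid markers summed to 5.18 FPKM in control and 1.47 in deficient cells, and only Car1 passed the filter (1.34 and 0.745). Below it, Alas2, an enzyme of heme synthesis, was at 1.28 and 0.295 FPKM, Slc4a1 at 1.29 and 0.0669, and Epb4.2 at 0.584 and 0.288. The part of these cells in the lower values of Igj and Slpi was not tested.

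Other B cells that can make J chain RNA were represented by short lists. Germinal center markers were low, with 3 of 8 compared, 0 at least 2-fold lower or higher and sums of 10.4 FPKM in control and 10.9 in deficient cells. Among them Fas was at 4.43 and 7.19 FPKM, the proliferation gene Mki67 at 2.69 and 1.501, Mybl1 at 1.57 and 1.00, and Nuggc at 0.481 and 0.452, whereas 0 of the 8 were listed at 0. Of 10 marginal zone and B-1 cell markers 8 were compared, 0 were at least 2-fold lower or higher, and the sums were 223 FPKM in control and 153 in deficient cells. Most of that difference lay in Plac8 (138 and 82.1 FPKM), followed by Bhlhe40 (25.7 and 17.2) and Dtx1 (27.3 and 20.6), while Cd1d1 was at 15.1 and 15.7. The part of germinal center, marginal zone and B-1 cells in the lower Igj level was not tested.

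Markers of macrophages and monocytes summed to 19.7 FPKM in control and 18.1 in deficient cells, with 6 of 11 compared and a median log2 ratio of −0.095. Cd68 (7.41 and 6.10), Cd5l (2.35 and 2.10), C1qb (1.61 and 2.39) and Vcam1 (2.09 and 1.78) were the most abundant. T cell markers summed to 24.4 and 22.8 FPKM, with 5 of 7 compared and a median of −0.18, and were led by Lck (14.5 and 14.5), Cd3d (3.02 and 2.31), Cd3e (1.83 and 1.96) and Cd3g (1.96 and 1.26). Dendritic cell markers summed to 4.01 and 4.29 FPKM, with only Ccr9 (1.57 and 2.05) of 7 past the filter, ahead of Zbtb46 (0.772 and 0.498), Flt3 (0.596 and 0.384) and Batf3 (0.286 and 0.500). None of these 3 lists had a gene at least 2-fold lower or higher among those compared.

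The genes whose ratios lay nearest to that of Igj over the 2 genotypes, outside the members, were Arl9 (2.85 FPKM in control and 0.299 in deficient cells, log2 ratio −2.89), the beta-globin Beta-s (52.0 and 7.08, −2.86), the alpha-globins listed together as Hba-a1,Hba-a2 (25.8 and 3.05, −3.04), Ncan (2.59 and 0.225, −3.05) and the neutrophil granule gene Camp (15.3 and 1.70, −3.10). The likeness is the difference of 2 log2 ratios and rests on 1 value per genotype, and globin genes are near-identical copies among which fragments may have been split. Genes beside Igj on chromosome 5 had ratios closer to 0. Of 10 gene names within 250 kb on either side, 5 had a mean of at least 1 FPKM, and their log2 ratios ran from −0.39 (Dck, 26.7 FPKM in control and 20.4 in deficient cells) to 0.22 (Utp3, 67.3 and 78.3). Rufy3 (6.98 and 6.77), Grsf1 (31.0 and 32.4) and Mob1b (5.21 and 4.56) lay between them, and the other 5 were below 0.181 FPKM in both genotypes.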

How the data were processed

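RNA of sorted follicular B cells was purified with TriZol and RNEasy columns, amplified with the Ovation RNA-Seq system and sequenced from TruSeq Nano DNA libraries, with 3 samples of each genotype. Bowtie, TopHat and Cufflinks are named in the submitters' processing notes, without versions or options. The authors deposited 1 table in the layout of a Cuffdiff comparison, with 25017 entries of pooled FPKM for wt/fl (HET) and fl/fl (KO). Its columns of fold changes, test statistics, p-values, q-values and significance are the authors' own comparison and were not used, apart from the status that says whether an entry was tested.

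FPKM was summed per gene name and ratios were computed with pandas 2.3.3 in Python 3.11.15, with 0.1 added to each value. The sum of all FPKM was 595296 in wt/fl and 596105 in fl/fl. The processing notes name GRCm38, but only 1.01% of 16006 single-entry genes matched to RefSeq had the GRCm38 start, so positions in the table are given as deposited, with starts counted from 1, and the build behind them is not settled here. The members and gene lists were chosen with earlier results of these data known. Named genes were the 8 members, Myh9, the 4 most highly expressed genes of each list, any compared list gene at least 2-fold lower or higher, and the 5 genes nearest in ratio to Igj; Bach2, Bcl6, Cd28, the genes listed at 0 and the neighbours of Igj were named after their values were seen. The values of 1 gene that this rule names are not reported here. The computations were tested on simulated data. Alternatives were other pseudocounts, filters, scalings, entries and folds.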

Additional observations from a re-analysis of the deposited data

How the results depend on the processing

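No paired analysis was possible because each genotype has 1 pooled value, and for the same reason no replicate was left out. The count of members at least 2-fold lower stayed at 1, Igj, with a pseudocount of 1, both scalings and the entry of highest mean FPKM, and became 2 with no pseudocount (Sdc1 added) and 2 at a fold of 1.5 (Sdc1 again). The count of members at least 2-fold higher was 0 under every alternative run. The median log2 ratio of −0.27 became −0.23 with a pseudocount of 1, −0.27 with none, −0.28 with median scaling, −0.26 with upper quartile scaling, −0.25 with the entry of highest mean, −0.067 over the 2 members with a mean of at least 5 FPKM and −0.16 over all members. The ratio of Igj ranged from −3.13 to −1.98, and each of the 7 members above 0 kept its sign. What limits these values is the lack of replicate values and of depth.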
